A study of Homo sapiens with 12 samples.

Results

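The comparison of IFI6 overexpression with its control vector is described here across protein-coding genes. TE-1, the cell line used, comes from a human cancer of the oesophagus. OE_IFI6 cells received a vector that overexpresses IFI6 and OE_control cells the matching control vector. Both were cultured for 48 h after transfection, with 3 libraries in each group. A further control, sh_control, received the control of the series' interference vectors and also has 3 libraries. The remaining libraries of the series, sh_IFI6, received the interference vector against IFI6. They entered the expression filter, the principal components and the spread of the fit. Total RNA was sequenced from all of them. Protein-coding genes that averaged 1 FPKM or more over all 12 libraries of the series were taken, which were 10925 of 19771. FPKM is the number of fragments scaled by transcript length and library size. The labels name neither the promoter of the vector nor the share of cells that took it up. Nor do they state that replicates of a group were grown apart, and a p-value here therefore reflects the spread among the sequenced samples alone, which may be technical.

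IFI6 is an interferon-induced gene that encodes a small hydrophobic protein reported at mitochondria and at the endoplasmic reticulum. Cells that meet misfolded protein, amino acid shortage or foreign nucleic acid switch on partly separate programmes. HSF1 drives cytosolic chaperones, XBP1 and ATF6 drive chaperones of the endoplasmic reticulum, ATF4 and CHOP run the integrated stress response, and factors of the IRF family act on interferon-stimulated genes. The comparison asks which of these and other programmes differed when IFI6 was raised.

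The OE_control libraries stood apart from the rest of the series. On the first principal component of log2(FPKM + 1), which held 23.1% of the variance, the OE_IFI6 libraries lay at -5.89, -10.3 and -7.44, against 30.6, 22.2 and 22.3 for OE_control. The 3 sh_control libraries lay between -11.3 and -7.79, beside OE_IFI6. Summed FPKM was 325877 to 353708 in OE_IFI6 and 336865 to 357145 in OE_control, and correlations between libraries of a group were 0.967 to 0.978. The OE_control libraries lay outside the range of the 6 OE_IFI6 and sh_control libraries in many genes, higher in 685 (6.27%) and lower in 1098 (10.1%). The OE_IFI6 libraries lay outside the range of both controls in fewer genes, higher in 123 (1.13%) and lower in 205 (1.88%). Some genes lie outside a range by the ordering of libraries alone, and their number was not estimated. Since OE_control stood apart, values in sh_control are given beside many of the results. A change given without them is one against OE_control alone.

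The cells carried part of the marker set of their label. KRT8 and KRT18, keratins of simple epithelium, averaged 965 and 471 FPKM in OE_IFI6, against 814 and 393 FPKM in OE_control. EPCAM, KRT5, KRT6A and SOX2 were listed at 0 in every library, and the squamous factor TP63 stayed at or below 0.332 FPKM. CDH1 reached at most 0.171 FPKM in a library, KRT14 0.0183 FPKM and KRT19 0.774 FPKM. Of 12 epithelial and squamous markers, 4 averaged 1 FPKM or more over the 12 libraries. Markers of other cell types were low. The sum of 8 fibroblast markers was 7.62 to 9.25 FPKM in OE_IFI6 against 7.80 to 8.40 FPKM in OE_control. Of these 8, 5 averaged 1 FPKM or more over the 12 libraries. Sums were 1.4997 to 1.90 FPKM in OE_IFI6 against 2.45 to 3.15 FPKM in OE_control for 6 immune markers. For 3 smooth muscle markers they were 4.03 to 4.50 against 5.12 to 6.57 FPKM. PTPRC and CD3E, which define leukocytes, averaged 0.0660 and 0 FPKM in OE_IFI6. The part of these markers in the results was not tested.

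IFI6 itself (ENSG00000126709, chromosome 1, 27666064 to 27672198 in the deposited table) followed the label. It had 309, 268 and 358 FPKM in OE_IFI6, against 27.3, 17.9 and 28.8 FPKM in OE_control. All 3 OE_IFI6 libraries lay above all OE_control libraries. The log2 fold change on the log2(FPKM + 1) scale was 3.62 (SE 0.17; limma adjusted p = 4.7e-07). In sh_control IFI6 had 24.9, 24.1 and 21.2 FPKM, so both controls held it at about the same level, and the difference from sh_control was 3.67. The transcript IFI6-202 accounted for most of it, with 303, 258 and 351 FPKM in OE_IFI6 and 24.8, 13.5 and 25.1 FPKM in OE_control. IFI6-203 had 4.53, 3.04 and 5.66 FPKM in OE_IFI6 and 2.48, 4.16 and 2.14 FPKM in OE_control, and did not pass (adjusted p = 0.46). Of the small interferon-induced family to which IFI6 belongs, IFI27L1 was the other member tested, at 7.36 FPKM in OE_IFI6 and 6.01 FPKM in OE_control (log2 0.25, adjusted p = 0.68).

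**Figure D1:**
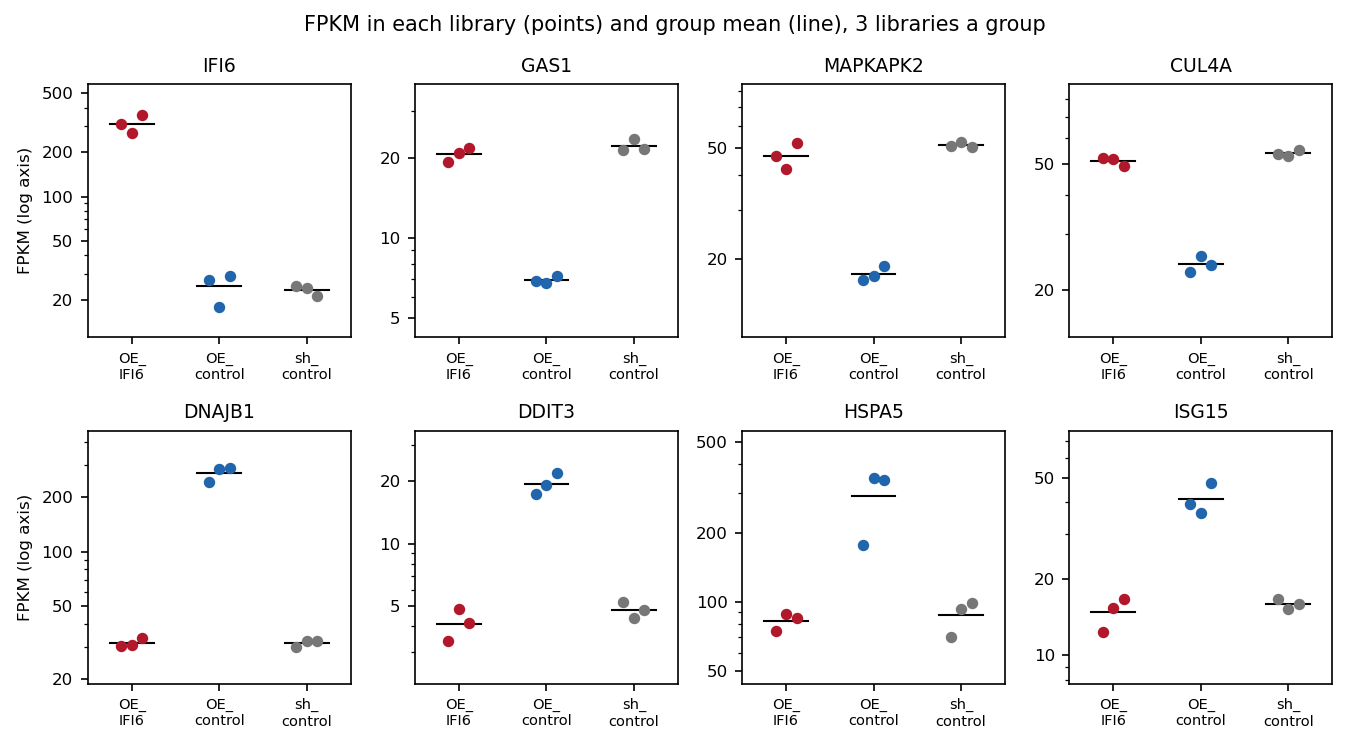
FPKM of 8 genes in each library of OE_IFI6, OE_control and sh_control (points, log axis), with group means as lines. IFI6 is high in OE_IFI6 alone, whereas for the other 7 genes the OE_control points lie apart and the OE_IFI6 points lie near those of sh_control.

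Across all genes, 448 rose (4.1%) and 389 fell (3.56%) in OE_IFI6 against OE_control at a Benjamini-Hochberg adjusted p under 0.05 in limma. The median log2 fold change of all genes was 0.05. All OE_IFI6 libraries lay above all OE_control libraries in 1475 genes (13.5%) and below them in 1069 (9.78%). Part of these counts may come from the ordering of 3 against 3 libraries alone, and that part was not estimated. Changes of at least 1 on the log2 scale numbered 47 rises (0.43%) and 51 falls (0.467%). Against sh_control, which shares the OE_IFI6 libraries with this comparison, 2 genes rose (0.0183%), IFI6 and RBMXL1, and 0 fell. At an unadjusted p under 0.05, 145 were higher (1.33%) and 358 lower (3.28%) in that second comparison. Fitted on the 6 libraries of OE_IFI6 and OE_control alone, 74 genes rose and 93 fell. Of 147 called genes that the naming rule gives besides IFI6, 66 lost the call in that smaller fit. Leaving out a library moved the counts most for OE_IFI6 2 (259 rose), OE_control 3 (260 rose and 243 fell), OE_control 1 (296 rose) and OE_IFI6 1 (246 fell). Exons of 77 of the 163 named genes overlap those of another gene in GENCODE 29. No source used here states whether reads were counted by strand. The gene lists below were chosen with earlier results of these data known, so their counts and medians describe and do not test. They stand beside the shares of all genes above, 4.1% rises and 3.56% falls.

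**Figure D2:**
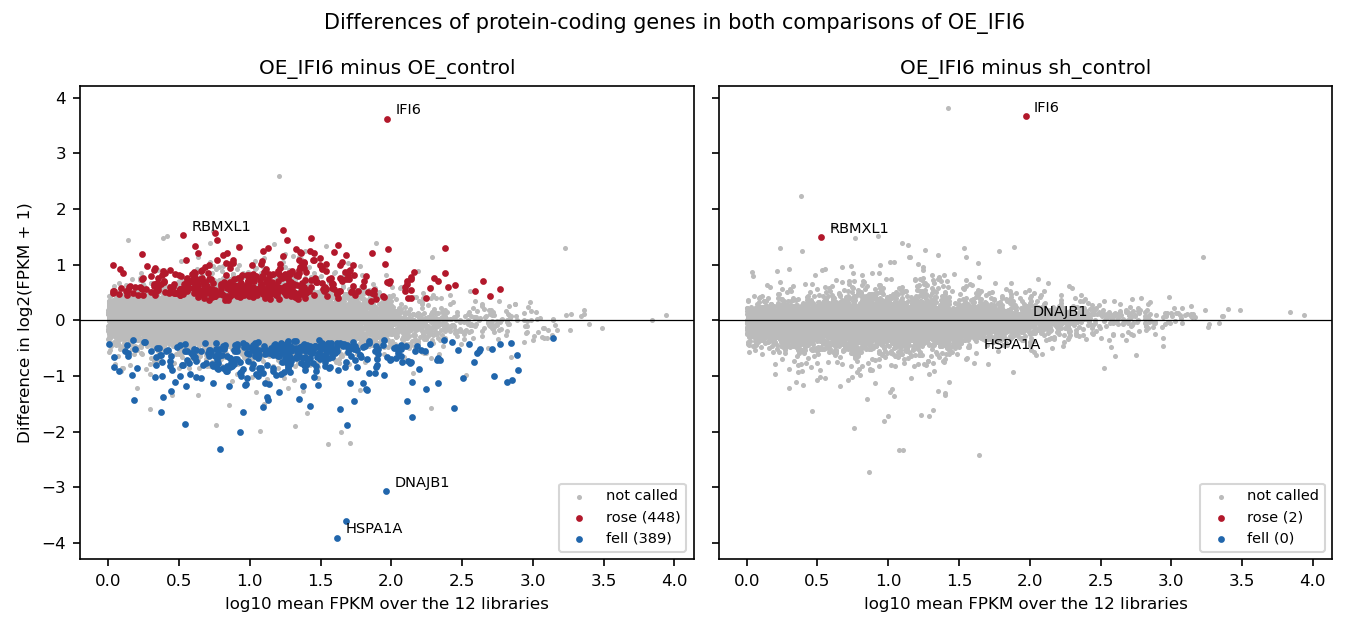
Difference in log2(FPKM + 1) of each of the 10925 tested genes against its mean FPKM over the 12 libraries (log10), for OE_IFI6 minus OE_control (left) and OE_IFI6 minus sh_control (right). Against OE_control 448 genes rose and 389 fell, against sh_control 2 rose and 0 fell, and IFI6 is the highest called point in both panels.

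Cytosolic heat shock chaperones held the largest falls. HSPA1A (chromosome 6, 31815464 to 31817946), the stress-inducible HSP70, had 5.69, 8.84 and 8.73 FPKM in OE_IFI6, against 83.2, 139 and 181 FPKM in OE_control. Its near-identical copy HSPA1B had 12.0, 10.6 and 10.6 FPKM in OE_IFI6, against 95.6, 156 and 205 FPKM in OE_control, and how reads were split between the copies is uncertain. In both genes OE_control 1 was the lowest of its group. The groups did not overlap, which the rule for the largest falls required. The log2 fold changes were -3.90 (SE 0.26, adjusted p = 9.6e-06) and -3.60 (SE 0.23, adjusted p = 9.6e-06). HSPA8, the constitutive HSP70, had 619, 483 and 535 FPKM in OE_IFI6, against 1324, 972 and 1161 FPKM in OE_control (log2 -1.07, adjusted p = 0.0087). HSPH1, an HSP110 that exchanges the nucleotide of HSP70, fell by 1.43 on the log2 scale. In sh_control HSPA1A had 9.58, 12.3 and 14.4 FPKM and HSPA8 had 435, 419.8 and 436 FPKM. Of 17 tested HSP70 chaperones and exchange factors 5 fell and 1 rose, with a median of -0.14. The riser was BAG1 (0.61), an exchange factor named after its values were seen, and that count was 0 without OE_IFI6 2, OE_IFI6 3 or OE_control 2.

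The J-domain partners of HSP70, which deliver clients to it, were led by DNAJB1. That gene had 30.2, 30.9 and 33.4 FPKM in OE_IFI6, against 242, 285 and 289 FPKM in OE_control, which differed by -3.07 on the log2 scale (SE 0.10; limma adjusted p = 1.3e-08). It had 30.1, 32.4 and 32.2 FPKM in sh_control. Libraries of each group lay close together, and those of OE_control lay 8.63 times higher on average. Of 30 tested J-domain co-chaperones 5 fell and 1 rose. The falls numbered 3 without OE_IFI6 1 or OE_control 2, 1 in the fit of 6 libraries and 8 after a correction for GC content. DNAJB4 (-1.12) and DNAJB2 (-0.91) also fell and DNAJC18 rose (0.62), calls that the fit of 6 libraries did not hold.

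HSP90 partners, small heat shock proteins and other HSF1 targets fell in 7 of 22 tested members, and 0 rose. The list's median was -0.53, against 0.05 over all genes and -0.08 for the same list against sh_control. HSPB1, a small heat shock protein that holds unfolded clients, had 154, 171 and 204 FPKM in OE_IFI6, against 511, 476 and 580.0 FPKM in OE_control (log2 -1.57, adjusted p = 3.8e-05). SERPINH1, the collagen chaperone HSP47, had 42.7, 40.4 and 57.6 FPKM in OE_IFI6, against 112, 99.99 and 122 FPKM in OE_control (log2 -1.24, adjusted p = 0.00029). In sh_control HSPB1 had 171, 209 and 200.3 FPKM and SERPINH1 49.1, 57.3 and 52.0 FPKM. HSPD1, the mitochondrial chaperonin HSP60, fell by 0.75 on the log2 scale. HSP90AA1, the inducible HSP90, averaged 129 FPKM in OE_IFI6 and 370.0 FPKM in OE_control but was not called (adjusted p = 0.058). The fall count was 4 in the fit of 6 libraries and 11 after GC correction. In 14 chaperonin and prefoldin genes, the folding machines of actin and tubulin, 1 fell and 0 rose (median -0.03), and the fall was lost without OE_IFI6 1, OE_IFI6 3, OE_control 1 or OE_control 2.

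Promoters of 4 genes that fell are shown, picked because letters of the HSF1 sequence can be read in them. Windows ran from 250 bases before to 50 bases after the RefSeq start (GRCh38.p14), and 8965 of the tested genes matched one (82.1%), with 80.5% of those that fell. The letters GAANNTTC, 2 facing units of a heat shock element and their own reverse complement, were in 6.77% of 35116 RefSeq windows. They were in 36 of 313 genes that fell with a window (11.5%), in 21 of 370 that rose (5.68%) and in 520 of 8282 not called (6.28%). Of HSP90 and HSF1 list members with a window, 7 of 18 held the letters, and 4 of these 7 fell, against 1 of the 11 without. That list was drawn to hold HSF1 targets, so the letters in its windows are partly given by its choice. In the HSP70 list 3 of 5 with the letters fell and 2 of 11 without. In the J-domain list 2 of 3 with the letters fell and 3 of 25 without. The 4 stretches below lie at chr6:31815397-31815484, plus strand, at chr19:14518398-14518514, minus strand, at chr7:76302451-76302538, plus strand and at chr11:75562142-75562229, plus strand, 5′ to 3′ on the gene's strand, with each match in capitals. A match is a description and not a bound site.
HSPA1A: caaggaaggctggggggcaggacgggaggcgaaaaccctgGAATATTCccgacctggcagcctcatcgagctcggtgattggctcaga
DNAJB1: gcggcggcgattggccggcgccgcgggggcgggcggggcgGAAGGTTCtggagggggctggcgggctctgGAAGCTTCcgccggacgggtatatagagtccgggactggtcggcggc
HSPB1: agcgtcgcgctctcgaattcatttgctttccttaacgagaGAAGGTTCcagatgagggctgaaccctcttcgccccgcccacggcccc
SERPINH1: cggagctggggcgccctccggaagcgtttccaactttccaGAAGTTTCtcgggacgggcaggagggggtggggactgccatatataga

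In the endoplasmic reticulum, folding and disulfide enzymes fell in 6 of 25 tested members and 0 rose, with a median of -0.37 (-0.06 against sh_control). HSPA5, the HSP70 of this compartment, had 74.2, 88.3 and 85.1 FPKM in OE_IFI6, against 178, 349 and 340.2 FPKM in OE_control (log2 -1.74, SE 0.22, adjusted p = 0.00099). OE_control 1 was the nearest of its group to OE_IFI6. The groups did not overlap, which the rule for the largest falls required. CALR, a lectin chaperone, had 581, 653 and 638 FPKM in OE_IFI6, against 1173, 1244 and 1047 FPKM in OE_control (log2 -0.88, adjusted p = 0.0022). MANF, a secreted stress factor, had 27.1, 31.7 and 31.4 FPKM in OE_IFI6, against 50.03, 52.3 and 63.3 FPKM in OE_control (log2 -0.85, adjusted p = 0.002). In sh_control HSPA5 had 70.2, 92.6 and 99.3 FPKM, CALR 627, 495 and 645 FPKM and MANF 24.7, 30.7 and 29.4 FPKM. The disulfide isomerase gene PDIA4 fell by 0.76 on the log2 scale, a call absent from the fit of 6 libraries, which kept 3 falls on the list. HERPUD1, a scaffold of the degradation pathway that removes misfolded proteins, had 84.4, 87.9 and 90.1 FPKM in OE_IFI6, against 179, 259 and 297 FPKM in OE_control (log2 -1.44, adjusted p = 0.00042). It was the 1 fall among 25 degradation genes (4%, against 3.56% of all genes), of which 2 rose (8%, against 4.1%). Leaving out OE_control 1 gave 0 rises, leaving out any OE_IFI6 library or OE_control 3 gave 1, and 2 fell without OE_IFI6 3. Among 33 coat and translocon genes, which carry proteins onward, 1 fell and 0 rose, with 0 falls without OE_IFI6 1, OE_IFI6 2 or OE_control 3 and 2 without OE_IFI6 3.

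The ER stress element, CCAAT followed after 9 bases by CCACG and read on both strands, was in 27 of 35116 windows (0.0769%). By gene, it was in 14 of 8965 tested genes with a window (0.156%), in 3 of 313 that fell (0.958%) and in 1 of 370 that rose (0.27%). In the folding list 6 of 23 held it. Of those 6 genes 3 fell, against 3 of the 17 without it. That list was drawn to hold chaperones of the endoplasmic reticulum, so the element in its windows is partly given by its choice. The HSPA5 and CALR stretches are shown because both genes fell and both carry the element, at chr9:125241351-125241449, minus strand, and chr19:12938359-12938442, plus strand. Capitals mark the element, which runs on the opposite strand in CALR.
HSPA5: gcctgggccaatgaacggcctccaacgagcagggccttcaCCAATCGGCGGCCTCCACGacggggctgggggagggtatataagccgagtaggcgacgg
CALR: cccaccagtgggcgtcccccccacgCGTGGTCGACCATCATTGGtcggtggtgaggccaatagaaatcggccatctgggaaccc

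Effectors of the integrated stress response fell in 9 of 25 tested members and 0 rose, with a median of -0.39 (-0.07 against sh_control). GDF15, a secreted stress cytokine, had 1.62, 2.89 and 3.40 FPKM in OE_IFI6, against 17.2, 15.9 and 16.7 FPKM in OE_control (log2 -2.31, SE 0.20, adjusted p = 6e-05). DDIT3, which encodes CHOP, had 3.38, 4.81 and 4.15 FPKM in OE_IFI6, against 17.3, 19.1 and 21.8 FPKM in OE_control (log2 -2.002, adjusted p = 1.2e-05). PPP1R15A, which directs dephosphorylation of the initiation factor eIF2, had 6.66, 9.15 and 10.8 FPKM in OE_IFI6, against 23.4, 25.2 and 24.3 FPKM in OE_control (log2 -1.38, adjusted p = 0.00034). Each of these had OE_IFI6 values near sh_control, where GDF15 had 2.39, 2.34 and 2.86 FPKM and DDIT3 had 5.25, 4.38 and 4.78 FPKM. CHAC1, which degrades glutathione, had 1.72, 1.39 and 1.94 FPKM in OE_IFI6, against 5.86, 5.73 and 4.86 FPKM in OE_control (log2 -1.27). SESN2, a leucine sensor, fell by 1.17 on the log2 scale. Exons of DDIT3 overlap those of MARS and MBD6 on the other strand.

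Letters TTGCATCA, a composite of ATF4 and C/EBP letters searched on both strands, were in 0.866% of windows, in 9 of 313 genes that fell and in 2 of 370 that rose. They were in 5 of 22 stress response list members with a window and 6 of 19 cytosolic synthetases. Of those 5 genes 2 fell, against 7 of the 17 without. The stress response list was drawn to hold genes of the programme that ATF4 runs, so its share is partly given by its choice. CHAC1 (chr15:40953222-40953309, plus strand) and HERPUD1 (chr16:56931926-56932013, plus strand) are shown as fallen genes that hold it in capitals.
CHAC1: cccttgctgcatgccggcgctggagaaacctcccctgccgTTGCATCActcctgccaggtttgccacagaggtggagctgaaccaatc
HERPUD1: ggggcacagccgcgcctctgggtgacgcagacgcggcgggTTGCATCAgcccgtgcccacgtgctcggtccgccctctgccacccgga

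Amino acid supply is part of what ATF4 is known to control. Enzymes that make serine, glycine, asparagine and proline fell in 6 of 22 tested members and 0 rose (median -0.30). ASNS, asparagine synthetase, had 17.5, 17.6 and 19.7 FPKM in OE_IFI6, against 58.4, 55.3 and 51.6 FPKM in OE_control (log2 -1.54, adjusted p = 1e-04). PHGDH, the entry enzyme of serine synthesis, had 140.5, 181 and 211 FPKM in OE_IFI6, against 291, 278 and 290.4 FPKM in OE_control (log2 -0.71, adjusted p = 0.01). The transcript ASNS-209 had 0, 0 and 3.50 FPKM in OE_IFI6, against 26.3, 35.6 and 33.8 FPKM in OE_control (log2 -4.31, limma adjusted p = 0.042). It was at 0 FPKM in every sh_control library. In sh_control ASNS had 17.5, 14.01 and 13.3 FPKM as a gene and PHGDH 165, 183 and 176 FPKM. PSAT1, the next enzyme, fell by 0.66 and the alanine transaminase GPT2 by 0.91 on the log2 scale. ASNS kept its call in the fit of 6 libraries, which left 1 fall on the list, and PHGDH, PSAT1 and GPT2 did not. Cytosolic aminoacyl-tRNA synthetases, which load amino acids onto tRNA, fell in 6 of 24 members, 3 without OE_control 2 or OE_control 3 and 2 in the fit of 6 libraries, and 1 rose without OE_control 1. GARS, for glycine, had 56.7, 50.2 and 58.7 FPKM in OE_IFI6, against 116, 107 and 97.2 FPKM in OE_control (log2 -0.94, adjusted p = 0.00038). WARS, for tryptophan, fell by 0.89 on the log2 scale. Their mitochondrial counterparts went the other way in part, with 3 of 17 that rose and 1 that fell. The rises numbered 1 without OE_control 1 and 0 without OE_control 3, and the fall was lost without OE_IFI6 1, OE_control 1 or OE_control 2.

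Amino acid carriers were mixed, with 4 of 22 that rose and 3 that fell. Leaving out a library gave 1 to 3 rises and 0 to 2 falls. Without OE_IFI6 2 and without OE_control 3 there was 1 rise and no fall, and without OE_IFI6 1 and without OE_control 1 there were 2 rises and 1 fall. The rises numbered 2 without OE_IFI6 3 and the falls 1 without OE_control 2. SLC7A5, the catalytic chain of the large neutral amino acid exchanger, had 493, 387 and 474 FPKM in OE_IFI6, against 244, 274 and 314 FPKM in OE_control (log2 0.70, adjusted p = 0.0044). Its libraries did not overlap between the groups, and it had 518, 570.1 and 523 FPKM in sh_control. SLC7A5 lost the call in the fit of 6 libraries.

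OASL, IFI44 and ISG15, which interferon is known to induce, were among the 25 largest falls. They are on none of the gene lists and are grouped here after their values were seen. OASL, a member of the oligoadenylate synthetase family, had 1.64, 1.75 and 1.88 FPKM in OE_IFI6, against 8.75, 10.1 and 8.44 FPKM in OE_control (log2 -1.87, adjusted p = 1.6e-05). IFI44 had 1.07, 1.53 and 0.851 FPKM in OE_IFI6, against 4.69, 6.67 and 5.70 FPKM in OE_control (log2 -1.64, adjusted p = 6.3e-05). ISG15, a ubiquitin-like modifier, had 12.3, 15.3 and 16.6 FPKM in OE_IFI6, against 39.3, 36.1 and 47.7 FPKM in OE_control (log2 -1.42, adjusted p = 9.9e-05). In none of the 3 did the groups overlap, which the rule for the largest falls required, and OE_IFI6 lay near sh_control. In sh_control OASL had 1.46, 1.18 and 1.40 FPKM, IFI44 had 1.44, 1.40 and 1.16 FPKM and ISG15 had 16.7, 15.2 and 15.9 FPKM. The RNA and DNA sensors and the kinases and factors behind interferon fell in 2 of 22 members (9.09%, against 3.56% of all genes) and 0 rose, with a median of -0.11 (0.01 without OE_IFI6 1). The falls numbered 1 without OE_IFI6 1, OE_IFI6 2 or OE_control 2 and 0 without OE_control 3. MICB, a stress ligand of the NKG2D receptor on killer cells, had 24.3, 26.6 and 32.4 FPKM in OE_IFI6, against 85.1, 86.1 and 84.3 FPKM in OE_control (log2 -1.59, adjusted p = 1.6e-05). It had 26.4, 29.6 and 27.5 FPKM in sh_control. MICB was 1 of 2 NKG2D ligands of 4 that fell, and the count was 1 without OE_IFI6 1 or OE_control 3.

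The core of the interferon response element, GAAA followed after 2 bases by GAAA on either strand, was in 3.57% of all windows, in 13 of 313 genes that fell and in 8 of 370 that rose. The stretches of IFI6, ISG15 and IFI44 are shown because IFI6 rose, ISG15 and IFI44 fell, and all of them hold the letters. They lie at chr1:27672236-27672388, minus strand, at chr1:1013344-1013439, plus strand, and at chr1:78649731-78649788, plus strand, and the 2 matches of ISG15 overlap each other. In IFI44 the letters run on the opposite strand. The IFI6 stretch is that of the chromosomal gene, and the labels do not name the promoter of the vector.
IFI6: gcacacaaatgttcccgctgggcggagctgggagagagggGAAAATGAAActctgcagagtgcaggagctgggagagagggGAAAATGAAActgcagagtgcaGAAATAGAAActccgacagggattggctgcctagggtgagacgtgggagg
ISG15: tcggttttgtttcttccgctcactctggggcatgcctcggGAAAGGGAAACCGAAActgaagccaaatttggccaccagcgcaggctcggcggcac
IFI44: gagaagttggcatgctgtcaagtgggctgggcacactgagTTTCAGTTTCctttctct

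Sterol synthesis fell in 9 of 26 tested members and 1 rose, with a median of -0.35 (-0.10 against sh_control). HMGCS1, which makes the precursor of mevalonate, had 33.0, 38.8 and 33.9 FPKM in OE_IFI6, against 88.1, 113 and 92.3 FPKM in OE_control (log2 -1.44, SE 0.12, adjusted p = 5.3e-05). MSMO1, a demethylase of the late pathway, had 173, 168 and 155 FPKM in OE_IFI6, against 346, 423 and 317 FPKM in OE_control (log2 -1.12, adjusted p = 0.00061). MVD, mevalonate diphosphate decarboxylase, fell by 0.83 on the log2 scale. HMGCS1 had 40.5, 47.6 and 43.5 FPKM in sh_control and MSMO1 196, 148 and 167 FPKM. The 1 rise was LBR (0.69), a nuclear envelope protein with sterol reductase activity, named after its values were seen. It was lost without OE_IFI6 2, OE_IFI6 3, OE_control 1 or OE_control 3, and the falls numbered 5 in the fit of 6 libraries. Fatty acid synthesis and desaturation had 1 fall and 0 rises among 18 members, with 1 rise without OE_control 2.

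Genes induced by low oxygen fell in 4 of 22 tested members and rose in 2. Of the 22, 18 were lower and 4 higher, and the median was -0.42, against -0.11 for the same list against sh_control. ADM, the vasodilator peptide adrenomedullin, had 103, 115 and 141 FPKM in OE_IFI6, against 322, 247 and 274 FPKM in OE_control (log2 -1.23, adjusted p = 0.00082). BNIP3L, a receptor for the removal of mitochondria, had 27.0, 32.6 and 22.4 FPKM in OE_IFI6, against 12.9, 12.0 and 12.0 FPKM in OE_control (log2 1.07, adjusted p = 0.00072). EGLN1, the oxygen-sensing prolyl hydroxylase, rose by 0.81 on the log2 scale. ADM had 191, 135 and 144 FPKM and BNIP3L 28.0, 25.1 and 28.3 FPKM in sh_control. The fit of 6 libraries left 1 fall, and GC correction gave 8. SLC2A3, a glucose transporter, had 452, 473 and 519 FPKM in OE_IFI6, against 1061, 1073 and 962 FPKM in OE_control (log2 -1.10, adjusted p = 7.8e-05). SLC2A3 had 546, 508 and 488 FPKM in sh_control. It was 1 of 3 falls among 24 glycolysis genes, a count that was 1 without OE_IFI6 1, OE_IFI6 2 or OE_control 3. The list had 1 rise, HK2, the first enzyme of glycolysis (log2 0.70, adjusted p = 0.049), which was lost without OE_IFI6 1, OE_IFI6 2, OE_control 1 or OE_control 3.

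**Figure D3:**
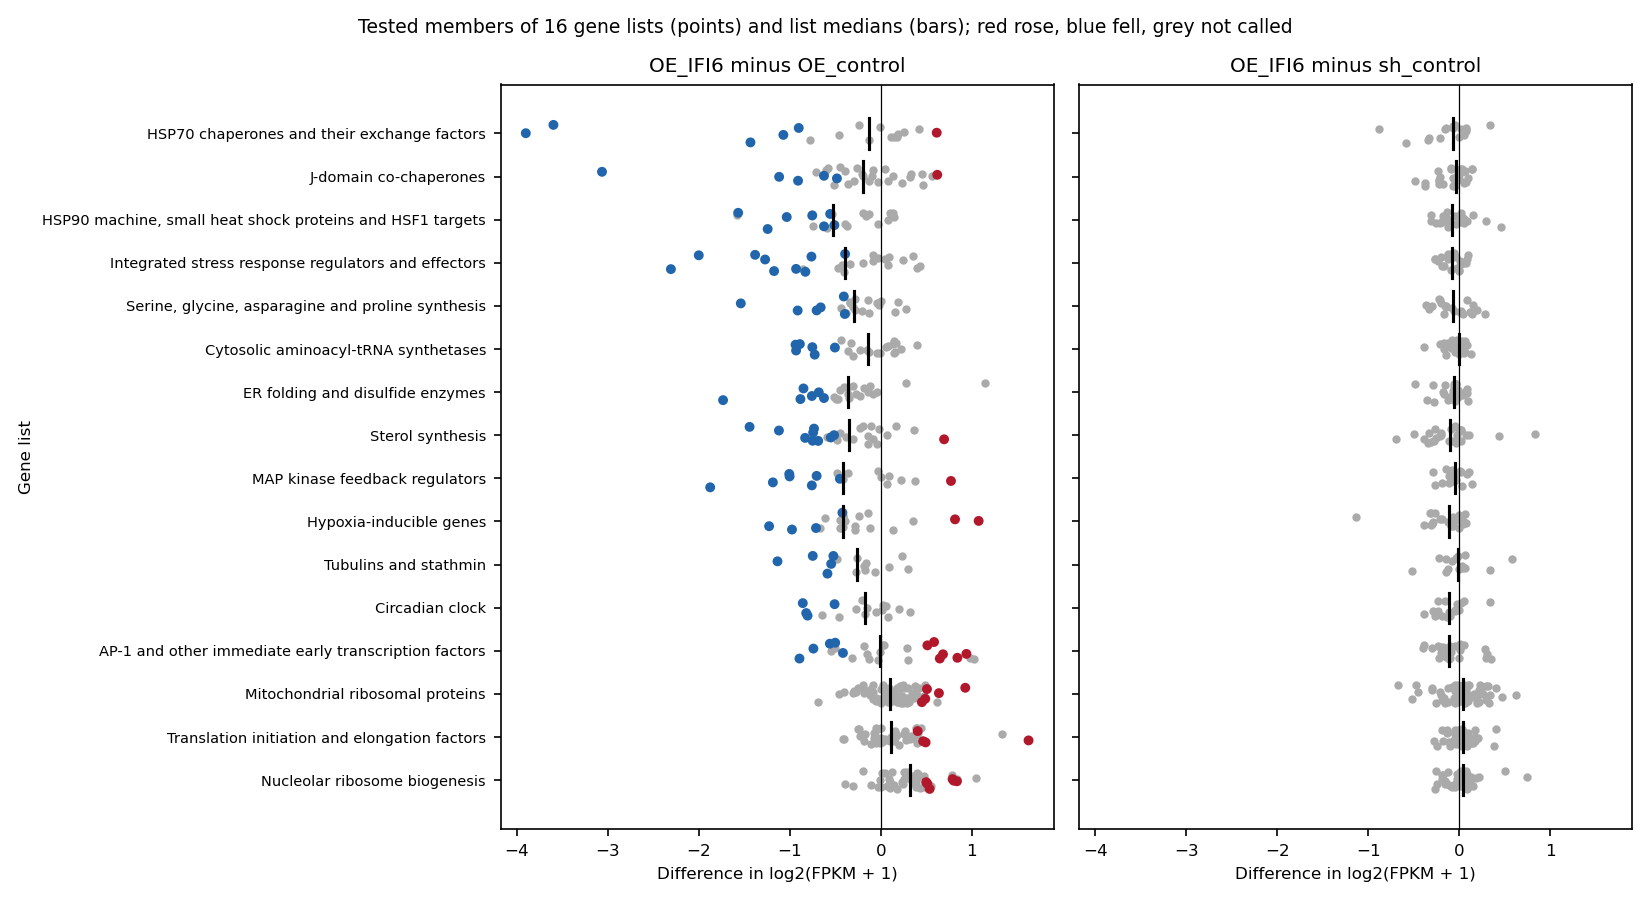
Difference in log2(FPKM + 1) of the tested members (points) of 16 gene lists, with the list median as a bar, for OE_IFI6 minus OE_control (left) and OE_IFI6 minus sh_control (right). Medians reach -0.53 for the HSP90 and HSF1 list and 0.32 for nucleolar genes on the left, and on the right no member of these lists was called.

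Feedback regulators of the MAP kinase pathway, which are switched on by the pathway and restrain it, fell in 7 of 17 tested members, and 1 rose (median -0.42, -0.05 against sh_control). DUSP5, a phosphatase of nuclear ERK, had 25.3, 26.4 and 31.4 FPKM in OE_IFI6, against 88.5, 108 and 117 FPKM in OE_control (log2 -1.88, SE 0.12, adjusted p = 9.6e-06). IER3, an early response gene, had 337, 368 and 441 FPKM in OE_IFI6, against 807, 732 and 754 FPKM in OE_control (log2 -1.01, adjusted p = 0.00029). ERRFI1, an inhibitor of the EGF receptor, had 14.8, 19.6 and 16.6 FPKM in OE_IFI6, against 32.4, 50.4 and 38.3 FPKM in OE_control (log2 -1.19, adjusted p = 0.0013). DUSP5 had 28.3, 31.0 and 30.8 FPKM and ERRFI1 16.02, 18.5 and 17.5 FPKM in sh_control, near OE_IFI6. The phosphatase DUSP1 fell by 0.71 and the growth factor-induced PHLDA1 by 1.004 on the log2 scale. DUSP2, a phosphatase named after its values were seen, was the rise (0.77). The median rounded to 0 when members under a mean of 5 FPKM were left out.

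The kinases themselves moved in few cases, with 2 of 30 that rose (6.67%, against 4.1% of all genes) and 0 that fell. Leaving out a library gave 1 rise (without OE_IFI6 2 or OE_control 3) to 4 (without OE_IFI6 3). MAPKAPK2, a kinase that acts below p38 on HSPB1 and on mRNA stability, had 46.9, 42.0 and 51.9 FPKM in OE_IFI6, against 16.8, 17.4 and 18.8 FPKM in OE_control (log2 1.36, SE 0.10, adjusted p = 1.6e-05). It had 50.7, 52.6 and 50.2 FPKM in sh_control. EGFR, the receptor, had 33.4, 37.3 and 25.2 FPKM in OE_IFI6 and 17.4, 32.6 and 14.2 FPKM in OE_control, groups that overlapped (adjusted p = 0.2). Immediate early transcription factors went both ways, with 6 of 25 that rose and 5 that fell. KLF2, a zinc finger factor, had 1.48, 1.27 and 1.95 FPKM in OE_IFI6, against 0.325, 0.445 and 0.512 FPKM in OE_control (log2 0.84, adjusted p = 0.006). JUN, a subunit of AP-1, had 118, 130.1 and 159 FPKM in OE_IFI6, against 85.9, 76.7 and 94.8 FPKM in OE_control (log2 0.65), and CREM, a cAMP-responsive factor, differed by -0.74. JUN had 135, 158 and 145 FPKM in sh_control. The calls of JUN and CREM were absent from the fit of 6 libraries, which kept 1 rise and 0 falls. The rises numbered 3 without OE_control 1, and the falls 3 without OE_IFI6 1, 2 without OE_IFI6 2 and 3 without OE_control 3.

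Targets of YAP and TGF-beta did not share a direction, with 3 of 25 that rose and 1 that fell. CCN2, a matricellular protein and YAP target, had 5.90, 6.61 and 8.90 FPKM in OE_IFI6, against 1.47, 2.33 and 1.43 FPKM in OE_control (log2 1.57, SE 0.17, adjusted p = 0.00029). In sh_control CCN2 had 7.98, 7.95 and 6.62 FPKM, near OE_IFI6. ID1, a target of BMP signals, rose by 0.70 on the log2 scale, though not in the fit of 6 libraries, which kept 1 rise. The list had 2 falls without OE_control 1, and its median of 0.24 was 0.07 without OE_IFI6 1 and 0.08 without OE_control 1. Integrins, which bind matrix, fell in 2 of 11 members and 1 rose. ITGA5, the fibronectin receptor chain, had 39.8, 31.1 and 38.1 FPKM in OE_IFI6, against 72.2, 85.1 and 83.9 FPKM in OE_control (log2 -1.13, adjusted p = 0.00016). ITGA5 had 43.9, 46.4 and 42.8 FPKM in sh_control. ITGA2, a collagen receptor chain, fell by 1.0005 on the log2 scale. The rise was lost without OE_control 3.

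Among tubulins and stathmin 5 of 15 fell and 0 rose (median -0.26), with 3 falls without OE_IFI6 1, 1 without OE_IFI6 2 and 1 in the fit of 6 libraries. TUBA4A, an alpha tubulin, had 37.8, 35.0 and 40.8 FPKM in OE_IFI6, against 62.7, 60.4 and 69.8 FPKM in OE_control (log2 -0.75, adjusted p = 0.0015). Exons of TUBA4A overlap those of STK16 and TUBA4B on the other strand. In keratins and epithelial junctions 2 of 21 rose (9.52%, against 4.1% of all genes) and 1 fell (4.76%, against 3.56%). This list had 2 falls without OE_control 1. TJP1, the tight junction scaffold ZO-1, had 8.97, 7.29 and 10.2 FPKM in OE_IFI6, against 3.42, 4.84 and 4.12 FPKM in OE_control (log2 0.93, adjusted p = 0.002). TJP1 had 9.14, 9.62 and 9.15 FPKM in sh_control. KRT17, a stress keratin, was low in all groups, with 1.18, 0.504 and 0.492 FPKM in OE_IFI6, against 4.10, 4.07 and 2.76 FPKM in OE_control (log2 -1.44). Near 1 FPKM the log2(FPKM + 1) scale understates fold changes. In bulk RNA, fewer cells that express a gene and less of its RNA per cell cannot be told apart.

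Nucleolar ribosome biogenesis rose in 6 of 47 tested members (12.8%, against 4.1% of all genes) and 0 fell, with a median of 0.32 against 0.05 over all genes and 0.04 for the list against sh_control. WDR74, a factor of the large ribosomal subunit, had 33.2, 24.5 and 28.3 FPKM in OE_IFI6, against 14.9, 14.9 and 18.1 FPKM in OE_control (log2 0.80, adjusted p = 0.0069). WDR74 had 19.9, 22.3 and 17.6 FPKM in sh_control. Its exons overlap those of RNU2-2P and TEX54 on the same strand and of AP001160.1 on the other, so the assignment of reads is uncertain. RRP1B, a nucleolar protein, rose by 0.51 on the log2 scale. The nucleolar rises numbered 2 without OE_IFI6 2, 3 without OE_control 3, 0 in the fit of 6 libraries and 11 after GC correction. Mitochondrial ribosomal proteins rose in 5 of 77 (6.49%) and 0 fell, a share of rises near that of all genes, with 0 rises in the fit of 6 libraries. MRPL58, which rescues stalled mitochondrial ribosomes, had 32.4, 37.1 and 39.7 FPKM in OE_IFI6, against 22.1, 13.7 and 21.1 FPKM in OE_control (log2 0.93, adjusted p = 0.0052). Of 42 genes of mitochondrial import, proteases and dynamics, the organelle where IFI6 protein has been placed, 0 were called, and their median was 0.06 (-0.02 without OE_control 2).

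Translation factors rose in 4 of 47 members (8.51%, against 4.1% of all genes) and 0 fell. DPH2 (chromosome 1, 43970000 to 43973369), which helps to build the diphthamide residue of elongation factor 2, had 21.2, 19.6 and 26.0 FPKM in OE_IFI6, against 5.25, 6.84 and 7.64 FPKM in OE_control (log2 1.62, SE 0.18, adjusted p = 0.00034). DPH2 had 19.3, 21.9 and 16.2 FPKM in sh_control. The factor list gave 1 rise without OE_IFI6 2 and 2 without OE_control 1, and 1 fall without OE_IFI6 3. The fit of 6 libraries kept 1 rise. RPL34, a protein of the large ribosomal subunit with many processed copies in the genome, had 321, 307 and 256 FPKM in OE_IFI6, against 140.1, 97.2 and 123 FPKM in OE_control (log2 1.29), and the share of its reads assigned to copies is uncertain. RPL34 had 263, 277 and 293 FPKM in sh_control. Splicing proteins of the hnRNP and SR families rose in 3 of 37 members (8.11%) and 1 fell, with a median of 0.23 (0.10 without OE_control 1). HNRNPC, which binds uridine tracts, had 68.9, 57.6 and 57.1 FPKM in OE_IFI6, against 39.1, 27.9 and 30.0 FPKM in OE_control (log2 0.91, adjusted p = 0.0021). Though HNRNPC rose as a gene, its transcript HNRNPC-211 fell (log2 -3.26, limma adjusted p = 0.0082). CLK1, a kinase of SR proteins, fell by 1.02 on the log2 scale.

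Clock genes fell in 4 of 17 and 0 rose, among them NFIL3, a repressor of the clock output, with 20.6, 21.3 and 18.7 FPKM in OE_IFI6, against 36.9, 39.1 and 32.5 FPKM in OE_control (log2 -0.81, adjusted p = 0.0008). BHLHE40, a repressor in the clock, fell by 0.82 on the log2 scale. Glucocorticoid-induced genes fell in 4 of 10 (40%, against 3.56% of all genes) and 0 rose (1 without OE_IFI6 3). The list's median was -0.02, with 6 members lower and 4 higher. DUSP1 and ERRFI1, described above with the MAP kinase feedback regulators, are among the 4 that fell. Among 18 selenoprotein genes 1 rose and 1 fell (5.56% each, against 4.1% and 3.56% of all genes), with a median of -0.05. There were 2 falls without OE_control 3. SELENOW, a small selenoprotein, had 57.5, 52.0 and 39.3 FPKM in OE_IFI6, against 119, 108 and 96.7 FPKM in OE_control (log2 -1.12, adjusted p = 0.0019). GPX1, the selenium glutathione peroxidase, averaged 18.8 FPKM in OE_IFI6 and 118 FPKM in OE_control but was not called (adjusted p = 0.078). TXNRD3, a thioredoxin reductase, was the selenoprotein gene that rose (log2 0.66, adjusted p = 0.0041), a call absent from the fit of 6 libraries. Genes of the aryl hydrocarbon receptor pathway rose in 2 of 9 members and fell in 1. TIPARP, a target of the receptor, fell by 0.79, and SLC7A5 (0.70) and the aldehyde dehydrogenase gene ALDH3A1 (0.48) rose on the log2 scale, with 1 rise without OE_IFI6 1, OE_IFI6 3 or OE_control 1 and 0 in the fit of 6 libraries. Some of the largest falls belong to no list. PMAIP1, the pro-apoptotic NOXA, had 7.16, 10.4 and 7.21 FPKM in OE_IFI6, against 25.9, 27.8 and 23.7 FPKM in OE_control (log2 -1.55). PMAIP1 had 9.15, 8.45 and 8.66 FPKM in sh_control. PIM1, a survival kinase, fell by 1.24 and GABRE, a chain of the GABA receptor, by 1.29 on the log2 scale.

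The largest rises after IFI6 came from unrelated families. GAS1, a surface protein that binds Hedgehog ligands, had 19.3, 20.9 and 21.8 FPKM in OE_IFI6, against 6.93, 6.80 and 7.21 FPKM in OE_control (log2 1.44, SE 0.09, adjusted p = 9.6e-06). LY6K, a surface protein of the LY6 family, had 30.8, 27.8 and 33.1 FPKM in OE_IFI6, against 10.9, 8.50 and 12.0 FPKM in OE_control (log2 1.47, adjusted p = 0.00014). MYLK3, a myosin light chain kinase known from heart muscle, had 11.2, 10.2 and 9.51 FPKM in OE_IFI6, against 2.90, 4.21 and 3.64 FPKM in OE_control (log2 1.31, adjusted p = 0.00015). The groups did not overlap in any of them, which the rule for the largest rises required. In sh_control GAS1 had 21.5, 23.6 and 21.6 FPKM, LY6K 30.6, 38.8 and 30.5 FPKM and MYLK3 11.6, 9.87 and 10.9 FPKM. FZD6, a Frizzled receptor of WNT ligands, had 14.4, 20.1 and 17.0 FPKM in OE_IFI6, against 5.86, 7.52 and 5.65 FPKM in OE_control (log2 1.31). FZD6 had 16.4, 15.5 and 11.8 FPKM in sh_control. VMA21, an assembly factor of the proton pump of lysosomes, rose by 1.21, the retrotransposon-derived PEG10 by 1.21 and RMND5A, a ubiquitin ligase subunit, by 1.29 on the log2 scale. DTYMK, thymidylate kinase, rose by 1.25 and MPHOSPH8, a reader of methylated histone H3, by 1.19. MPHOSPH8 had 3.34, 2.71 and 1.82 FPKM in OE_IFI6, against 0.514, 0.737 and 0.447 FPKM in OE_control. Exons of LY6K, FZD6, MYLK3 and PEG10 overlap a gene on the other strand in GENCODE 29.

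**Figure D4:**
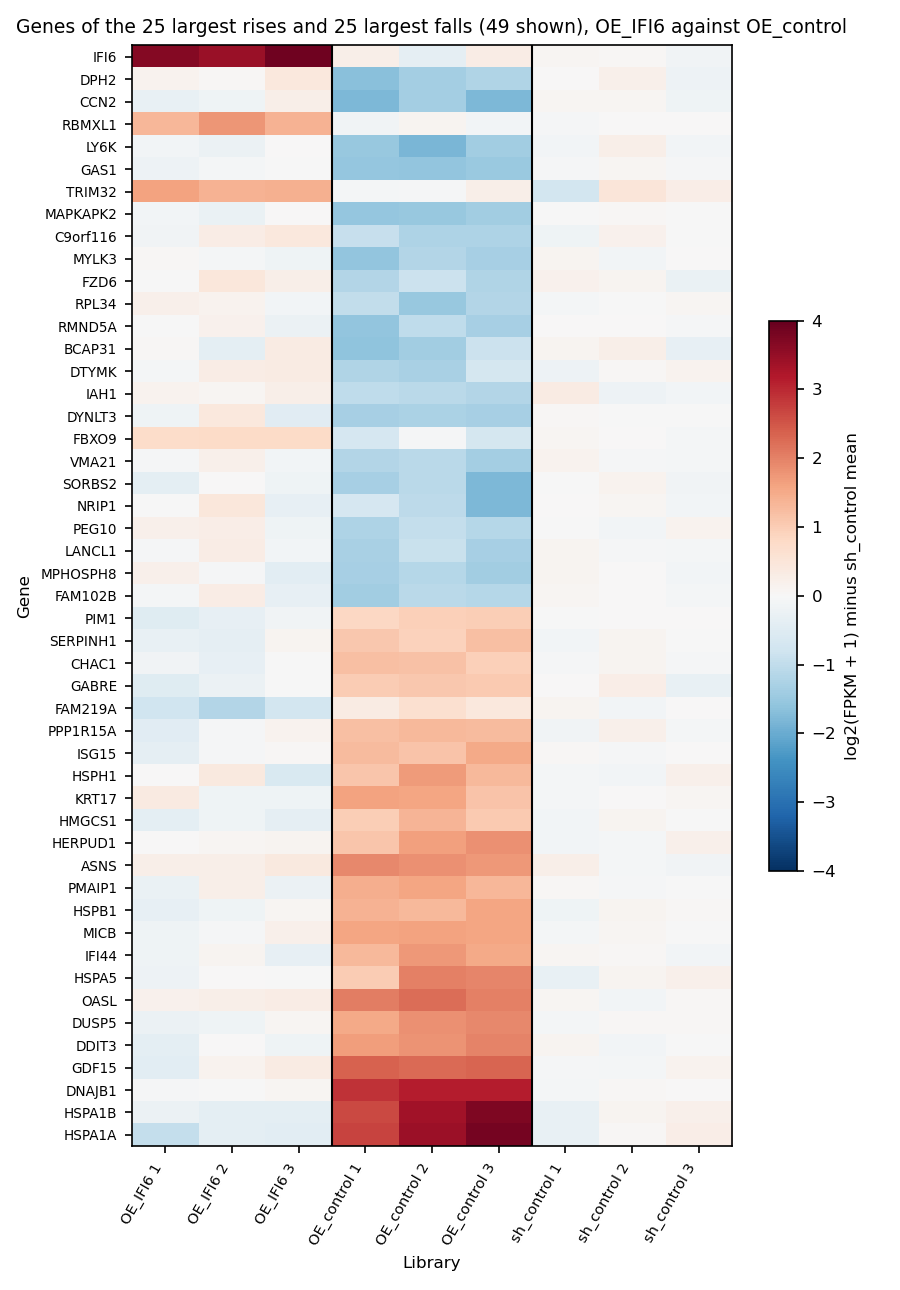
Level in each library of 49 genes from the 25 largest rises and 25 largest falls of OE_IFI6 against OE_control, as log2(FPKM + 1) minus the gene's sh_control mean (colour, -4 to 4). The OE_IFI6 columns are near 0 for most genes, with IFI6, RBMXL1, TRIM32 and FBXO9 above and FAM219A below, and the OE_control columns carry most of the colour.

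Of the genes whose OE_IFI6 libraries lay outside both controls (123 higher, 1.13% of those tested, and 205 lower, 1.88%), a few are named here. How many of them lie there by the ordering of libraries alone was not estimated. They were picked after their values were seen. RBMXL1, an intronless copy of the RNA-binding protein gene RBMX, had 6.61, 9.39 and 7.01 FPKM in OE_IFI6, against 1.76, 2.32 and 1.84 FPKM in OE_control (log2 1.54, SE 0.13, adjusted p = 6.1e-05). In sh_control it had 1.96, 2.12 and 2.11 FPKM, and that difference was called too (1.49, adjusted p = 0.00073). Its exons overlap those of KYAT3 on the same strand, and its sequence resembles RBMX, so the assignment of reads is uncertain. TRIM32, a ubiquitin ligase, had 10.7, 9.08 and 9.28 FPKM in OE_IFI6, against 2.62, 2.75 and 3.52 FPKM in OE_control and 1.32, 4.32 and 3.61 FPKM in sh_control. It was called against OE_control (log2 1.43, adjusted p = 0.019), though not without OE_IFI6 1, OE_control 1 or OE_control 2, and not against sh_control (1.47, adjusted p = 0.57). FBXO9, a substrate receptor of a ubiquitin ligase, had 32.7, 34.0 and 33.5 FPKM in OE_IFI6, against 11.8, 18.9 and 11.5 FPKM in OE_control and 20.5, 19.6 and 18.3 FPKM in sh_control. It was called against OE_control (log2 1.23, adjusted p = 0.0031) and not against sh_control (0.75, adjusted p = 0.8). FAM219A had 0.981, 0.523 and 1.07 FPKM in OE_IFI6, against 3.37, 4.44 and 3.64 FPKM in OE_control and 2.72, 2.17 and 2.503 FPKM in sh_control. It fell against OE_control (log2 -1.38, adjusted p = 0.00019) and was not called against sh_control (-0.91, adjusted p = 0.12). In sh_IFI6 TRIM32 had 9.43, 4.09 and 9.42 FPKM and FBXO9 31.2, 21.3 and 19.5 FPKM, so high values of both were also seen there. RBMXL1 had 1.64, 1.83 and 1.91 FPKM in sh_IFI6 and FAM219A 2.69, 2.45 and 2.71 FPKM, near sh_control.

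Of 14 regulators of these programmes, given whatever their values, 1 was called. HSF1 had 13.8, 13.1 and 17.8 FPKM in OE_IFI6 and 16.2, 17.6 and 17.3 FPKM in OE_control, groups that overlapped (log2 -0.19, adjusted p = 0.41). XBP1 had 38.7, 28.3 and 25.9 FPKM in OE_IFI6 and 38.9, 41.1 and 44.1 FPKM in OE_control, which did not overlap but were not called (log2 -0.43, adjusted p = 0.089). SREBF2, the sterol regulator, had 74.5, 59.3 and 70.9 FPKM in OE_IFI6 and 68.9, 72.5 and 74.8 FPKM in OE_control (log2 -0.08, adjusted p = 0.68). MYC had 105, 75.0 and 41.3 FPKM in OE_IFI6 and 36.9, 62.0 and 17.7 FPKM in OE_control, the widest spread of them (SE 0.58, adjusted p = 0.35). ATF4 was the called regulator, with 221, 247 and 276 FPKM in OE_IFI6, against 329.9, 312 and 332 FPKM in OE_control, and the log2 fold change of ATF4 was -0.39 (adjusted p = 0.033). It was not called without OE_IFI6 1, OE_IFI6 2, OE_control 1 or OE_control 3 (adjusted p = 0.10, 0.080, 0.073 and 0.092) after quantile normalization (0.083) or in the fit of 6 libraries (0.20). YAP1 had 14.7, 17.6 and 12.3 FPKM in OE_IFI6, 16.5, 18.5 and 10.96 FPKM in OE_control and 34.4, 39.4 and 37.4 FPKM in sh_control, and was not called in either comparison (adjusted p = 0.98 and 0.94).

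At the level of single transcripts, 146 of 17030 rose (0.857%) and 149 fell (0.875%), in 284 genes. Against sh_control 6 rose (0.0352%) and 1 fell (0.00587%). The rises numbered 64 without OE_IFI6 1, 71 without OE_IFI6 2, 72 without OE_control 1 and 78 without OE_control 3, and the falls 68 without OE_IFI6 1, 82 without OE_IFI6 2, 80, 90 and 73 without OE_control 1, 2 and 3. Fitted on the 6 libraries alone, 39 rose and 52 fell. In 3 genes, CUL4A, MORF4L2 and SEMA6D, a transcript rose while another fell. CUL4A (chromosome 13, 113177677 to 113267108), the scaffold of a ubiquitin ligase, had 52.0, 51.8 and 49.2 FPKM in OE_IFI6, against 22.8, 25.7 and 24.1 FPKM in OE_control as a gene (log2 1.05, adjusted p = 4.9e-05). Its transcript CUL4A-203 had 41.5, 40.5 and 34.5 FPKM in OE_IFI6, against 0.236, 0.141 and 0.163 FPKM in OE_control (log2 5.07, adjusted p = 1.9e-08). CUL4A-202 had 0.108, 0.210 and 0.305 FPKM in OE_IFI6, against 10.5, 14.2 and 11.8 FPKM in OE_control (log2 -3.44, adjusted p = 0.00027). In sh_control CUL4A-203 had 41.3, 37.4 and 42.4 FPKM and CUL4A-202 had 0.223, 0.550 and 0.255 FPKM, like OE_IFI6. MORF4L2, a chromatin reader of the MRG family, was not called as a gene (log2 -0.34, adjusted p = 0.095). MORF4L2-206 had 223, 264 and 231 FPKM in OE_IFI6, against 2.003, 1.37 and 1.24 FPKM in OE_control (log2 6.57, adjusted p = 0.028). MORF4L2-203 had 12.9, 17.8 and 15.9 FPKM in OE_IFI6, against 327, 299.9 and 289 FPKM in OE_control (log2 -4.22, adjusted p = 0.012). In sh_control the third library had 5.24 FPKM of MORF4L2-206 and the other two 202 and 239 FPKM, so the split between transcripts varied within a group. Transcripts of a gene share exons. No source used here states how the authors divided reads among them.

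**Figure D5:**
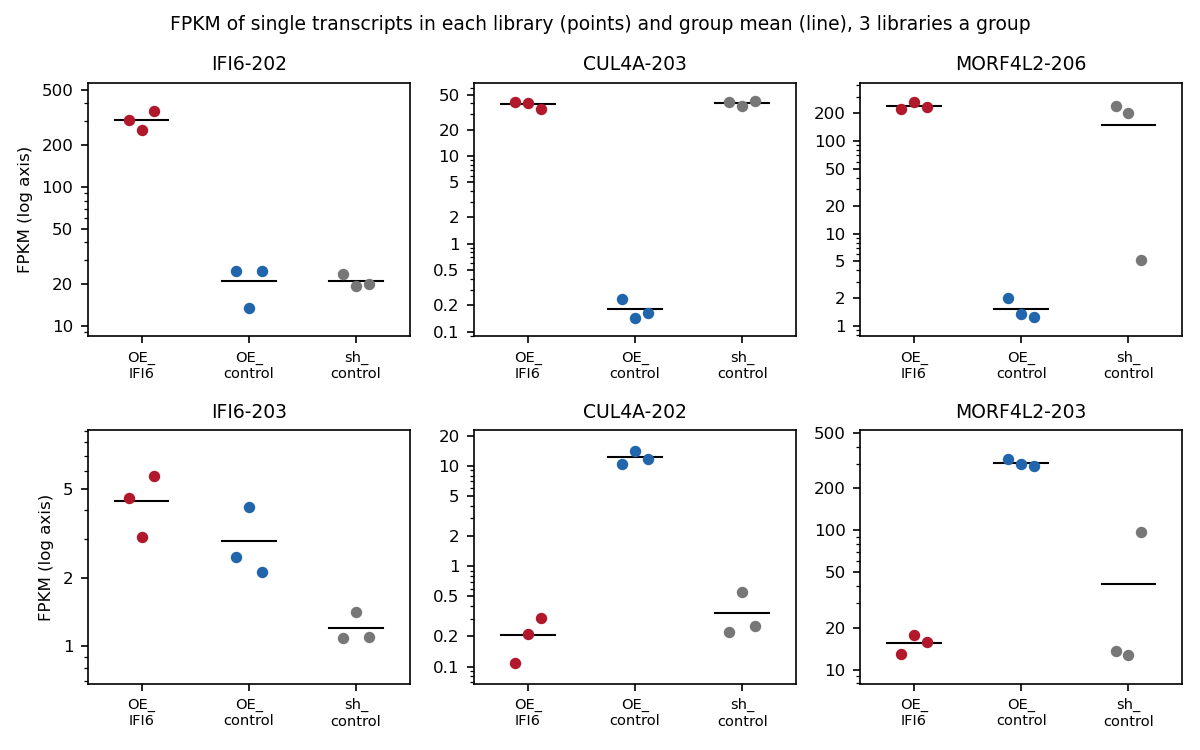
FPKM of 2 transcripts each of IFI6, CUL4A and MORF4L2 in each library of OE_IFI6, OE_control and sh_control (points, log axis), with group means as lines. CUL4A-203 is between 34.5 and 41.5 FPKM in OE_IFI6 and at most 0.236 FPKM in OE_control, and CUL4A-202 shows the reverse.

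Called genes were not spread evenly over level and base composition. Falls took 1.63% of genes with a mean of 1 to 2 FPKM and 8.95% of those at 100 FPKM or more, and rises took 2.66% and 4.28%. By GC content of the most abundant transcript, with genes in 5 bins of near equal size, falls took 1.61% of the lowest bin and 4.52% of the highest, and rises took 4.1% and 2.58%. The median GC content was 47.1% for 442 rises, 54.0% for 385 falls and 49.2% for 10015 genes not called. The median log2 fold change was 0.10 in the lowest bin of GC content and -0.01 in the highest. After correction for GC content 596 genes rose and 708 fell. The part of base composition in the single calls above was not tested beyond that fit.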

How the data were processed

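Total RNA libraries of TE-1 cells were made with Illumina protocols, per the labels. The FPKM values per gene and per transcript were made by the authors and deposited as 2 tables. The submitters' processing notes name HISAT2, StringTie, Cuffdiff and edgeR without roles, and no source used here gives the genome build, annotation, strand setting or read depth. Low FPKM values did not give whole reads, so no interval on counts was possible.

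Here log2(FPKM + 1) was fitted with limma 3.58.1 in R 4.3.3, as 1 model of group means over all 12 libraries (8 residual degrees of freedom, trended prior), for genes and transcripts with a mean of at least 1 FPKM. Contrasts were two-sided, with Benjamini-Hochberg adjustment over all features tested and a threshold of 0.05. An exact permutation test of 3 against 3 libraries cannot go below p = 0.1. The fit was tested on simulated data. Genes were named by rule: IFI6, the 25 largest called rises and falls without overlap between libraries, up to 4 called members of each list with at least 2, genes with diverging transcripts, and 14 regulators. A few that the rule gives are not reported here. The members and the 46 gene lists were chosen with earlier results of these data known. Alternatives were another pseudocount (0.1), no minimum or one of 5 FPKM, median-of-ratios and quantile scaling, no trend, the 6 libraries alone, the replicate number as a block, each library left out and, added after seeing the data, a correction for GC content. Promoter windows came from RefSeq (GRCh38.p14).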

Additional observations from a re-analysis of the deposited data

How the results depend on the processing

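IFI6 was called in every setting run, with a log2 fold change of 3.42 to 3.75, and 79 of 147 other named genes were called in every setting. Fitted on the 6 libraries compared, 74 genes rose and 93 fell (against sh_control 4 rose and 1 fell), and 39 transcripts rose and 52 fell; fewer libraries then set the spread. With a minimum log2 change of 1, 47 genes rose and 51 fell. GC correction gave 708 falls, and 1 rise against sh_control, as did a minimum of 5 FPKM. The cause was not tested.

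Leaving out 1 library gave 259 to 423 rises and 243 to 436 falls against OE_control, 2 to 4 rises and 0 to 1 falls against sh_control, and 64 to 111 rises and 68 to 134 falls of transcripts. Rises were 53.5% of calls, 45.2% after median-of-ratios scaling and 43.9% after quantile normalization.

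Some uncalled regulators changed sign. Over the fits that left out 1 library, the log2 fold change of SREBF2 was -0.149 to 0.0126, the log2 fold change of MTF1 -0.049 to 0.106 and the log2 fold change of YAP1 -0.233 to 0.119; the log2 fold change of MTF1 was also -0.0266 after quantile normalization and -0.0125 after GC correction.

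With the replicate number as a block, 433 genes rose and 369 fell, and 52 transcripts rose and 67 fell. Same-numbered OE_IFI6 and OE_control libraries deviated together with r = 0.0872, 0.254 and 0.124, and each OE_IFI6 library correlated best with the OE_control library of its own number, a hint from the data and not the design. The samples share only a number. Read depth is not known.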

Other observations

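The gene lists not described so far gave these counts in OE_IFI6 against OE_control. Of all genes, 4.1% rose and 3.56% fell. Surface proteins of the LY6 and uPAR family rose in 2 of 6 tested members, LY6K and LYPD6, and 1 fell, LY6E. The rises numbered 1 without any 1 of OE_IFI6 1, OE_IFI6 2, OE_IFI6 3, OE_control 1 and OE_control 3, and the fall was lost without OE_IFI6 2, OE_control 1 or OE_control 3. Laminins, collagens and matrix enzymes fell in 2 of 18, COL4A1 and LOXL2, and 0 rose, with 0 falls without OE_IFI6 1, OE_IFI6 2 or OE_control 3 and 1 without OE_IFI6 3 or OE_control 2. EGF family ligands and receptors had 1 fall among 7, lost without OE_IFI6 1 or OE_control 3, and 0 rises (1 without OE_control 2). Nonsense-mediated decay factors had 1 fall among 13 and 0 rises (1 without OE_control 1), and cytokines and chemokines 1 fall among 5 and 0 rises. Cullin-RING ligases had 1 rise among 26 (2 without OE_IFI6 1), WNT receptors and feedback genes 1 among 21 (2 without OE_IFI6 3 or OE_control 2), and metallothionein and zinc transport genes 1 among 13 (3 without OE_control 2), each with 0 falls. The core of the spliceosome rose in 2 of 32 tested members (6.25%) and 0 fell. The rises numbered 0 without OE_IFI6 1 or OE_control 1 and 1 without OE_IFI6 2, OE_IFI6 3 or OE_control 3. Lysosomal acid hydrolases and subunits of the proton pump fell in 3 of 34 members and 1 rose, and 27 of the 34 were lower, with a median of -0.20 (-0.06 against sh_control). The falls numbered 1 without OE_IFI6 2 and 0 in the fit of 6 libraries. The lysosomal membrane protein LAMP1 fell by 0.69 on the log2 scale, a call absent from that fit. Genes of the actin cytoskeleton fell in 2 of 35 members (5.71%) and 0 rose, with 1 fall without OE_IFI6 2 or OE_control 3. VCL, the adhesion protein vinculin, fell by 0.52 on the log2 scale and lost the call in the fit of 6 libraries.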
